A study of Homo sapiens with 6 samples.

Results

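The genes described here run mitosis, the stage of the cell cycle in which the copied chromosomes are condensed, attached to a spindle of microtubules and pulled apart. The list holds 44 genes, and members were chosen by annotation alone, as the array transcripts assigned to a listed gene and to no other, with the brightest such transcript kept for each gene. By this rule 40 of the 44 were measured, out of 14232 genes with a transcript of their own and 22011 transcripts in all. BUB1B, KIF20A, KIF23 and KIF4A shared their only transcripts with PAK6, CDC23, KIF23-AS1 and KIF4B, so no value of their own could be given.

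The study measured gene expression in MDA-MB-231, an established triple-negative breast cancer cell line with a mesenchymal shape, transfected with a lipofectamine reagent and either control siRNA or siRNA against HMGA1, a chromatin protein of the high mobility group. Each group held 3 arrays at 48 hours, named biological replicates in the labels and described by the study as independent replicates. The labels name the knock-down both shHMGA1 and siHMGA1, and the methods describe the controls as treated with vector RNA. All arrays come from this line alone, and the age or passage of the cells was not given in the sources used here. The transcript that measures HMGA1 also covers its pseudogene HMGA1P8; it stood at 10.11, 10.25 and 10.35 log2 units on control replicates 1, 2 and 3 and at 9.81, 9.65 and 9.76 on HMGA1 siRNA replicates 1, 2 and 3. These groups did not overlap, and the difference was -0.50 ± 0.10 (SE, limma unadjusted p = 0.00139, adjusted p = 0.806 over all transcripts). The mesenchymal markers VIM, CD44, EGFR, AXL, CAV1 and ZEB1 stood at 10.87 or more on every array. The hormone receptors ESR1 and PGR stood at 7.07 and 5.28 at most. Other epithelial and hormone receptor markers stood higher, ERBB2 at 10.14 to 10.27 and KRT19 at 10.60 to 11.51. GATA3 and FOXA1 stood between 8.04 and 8.87, and CDH1 and EPCAM between 7.28 and 9.40.

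Entry into mitosis depends on CDK1, a kinase that is switched on by cyclin B and by CDC25 phosphatases, and exit depends on the anaphase-promoting complex (APC/C), a ubiquitin ligase that destroys cyclin B and securin once the spindle checkpoint is satisfied. The kinetochore joins each chromosome to microtubules, the chromosomal passenger complex corrects faulty attachments, and kinesin motors build the spindle and the midzone where the cell divides. Most of these genes are transcribed late in the cell cycle, through promoters bound by the DREAM and MuvB complexes at an element called CHR, and by NF-Y at CCAAT boxes, with FOXM1 as a further activator. Their RNA level in a culture therefore follows the share of cells in G2 and mitosis, and in bulk samples fewer such cells and less RNA per cell cannot be told apart.

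Promoter stretches are shown for 8 members whose values are described below, because the CHR element and the CCAAT box are the sequence features that mitotic genes are known to share. Each stretch is the 120 bases before the start of a RefSeq transcript on GRCh38.p14, written 5′ to 3′ along the gene. Capitals mark the CHR element (the letters TTTGAA or TTCGAA on the gene's strand, with TTCAAA for the opposite strand) and the CCAAT box (ATTGG on the opposite strand). CDK1 lies at chr10:60778358-60778477 on the plus strand, CCNB1 at chr5:69167030-69167149 on the plus strand, PLK1 at chr16:23678769-23678888 on the plus strand and NEK2 at chr1:211675622-211675741 on the minus strand. CDC20 lies at chr1:43358861-43358980 on the plus strand, CENPA at chr2:26785936-26786055 on the plus strand, KIF18A at chr11:28108157-28108276 on the minus strand and MKI67 at chr10:128126424-128126543 on the minus strand.
CDK1: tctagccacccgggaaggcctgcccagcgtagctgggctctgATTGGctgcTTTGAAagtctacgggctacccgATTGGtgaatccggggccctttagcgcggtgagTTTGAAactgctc
CCNB1: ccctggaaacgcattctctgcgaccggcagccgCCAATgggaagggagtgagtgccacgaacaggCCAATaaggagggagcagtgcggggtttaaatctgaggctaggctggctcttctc
PLK1: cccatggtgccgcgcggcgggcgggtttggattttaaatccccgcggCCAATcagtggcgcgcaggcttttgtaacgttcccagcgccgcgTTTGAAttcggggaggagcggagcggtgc
NEK2: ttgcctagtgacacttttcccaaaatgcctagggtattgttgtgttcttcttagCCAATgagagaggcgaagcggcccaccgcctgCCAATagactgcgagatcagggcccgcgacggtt
CDC20: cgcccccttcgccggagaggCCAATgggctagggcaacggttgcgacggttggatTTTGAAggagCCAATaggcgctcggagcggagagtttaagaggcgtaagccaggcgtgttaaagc
CENPA: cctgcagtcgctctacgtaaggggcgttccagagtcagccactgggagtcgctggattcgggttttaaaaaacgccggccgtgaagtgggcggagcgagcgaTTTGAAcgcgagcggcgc
KIF18A: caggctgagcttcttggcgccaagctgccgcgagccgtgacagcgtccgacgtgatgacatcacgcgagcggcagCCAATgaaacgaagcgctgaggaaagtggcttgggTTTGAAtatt
MKI67: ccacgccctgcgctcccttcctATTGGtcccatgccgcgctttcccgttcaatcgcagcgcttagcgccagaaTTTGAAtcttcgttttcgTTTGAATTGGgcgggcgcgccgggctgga

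In these stretches CDK1 held a CHR element beginning 69 and another beginning 13 bases before the start, and MKI67 held them at 47 and 29 bases. The single elements of PLK1, CDC20, CENPA and KIF18A began 29, 65, 18 and 10 bases before the start. CCNB1 and NEK2 held 2 CCAAT boxes each and no CHR element of the spellings searched, and CENPA held a CHR element and no CCAAT box. In MKI67 the second CHR element and the CCAAT box on the opposite strand overlap, so they are written as 1 run of capitals.

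RefSeq promoter windows of 250 bases before to 50 bases after the start were at hand for 37 of the 44 listed genes, as 46 windows. A CHR element, on either strand, was found in 33 of the 46 windows (71.7%), against 16.4% of all 35116 windows of the same length. A CCAAT box was found in 35 of them (76.1%, against 34.6%), and both motifs together in 28 (60.9%, against 6.38%). Other genes of mitosis held a CHR element in 39.1% of their windows and a CCAAT box in 51.3%. DNA replication genes, which peak earlier in the cell cycle, held a CCAAT box in 65.8% and a CHR element in 5.26%. These matches describe the letters in the windows and do not show that a factor binds there. Only the spellings TTTGAA and TTCGAA were searched, so a CHR element of another spelling would be missed. Of the measured members with a window, CCNB1, CCNA2, NEK2, AURKB, CENPE and KIF2C held no CHR element in any window and 27 held one.

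The first comparison asked whether RNA of the mitotic machinery differed between cells with HMGA1 siRNA and control cells. No member passed the threshold of an adjusted p of 0.05 (limma over all 22011 transcripts, of which 0% passed), and the lowest adjusted p of any member was 1, against 0.262 for any transcript. At an unadjusted p under 0.05, 2 members were found, NEK2 and CDC25B, both higher with HMGA1 siRNA. This count ranged from 1 to 11 when 1 array was left out, with the 11 found without HMGA1 siRNA replicate 1, and no member passed the adjusted threshold in any of these fits. The share of all transcripts under this unadjusted threshold was not counted in these fits. Their counts were therefore not read as a result about the members. With all arrays 3.31% of all transcripts lay under this threshold, and 1.74% lay under it with the higher value in HMGA1 siRNA. The log2 fold change (HMGA1 siRNA minus control siRNA) was above 0 for 36 of the 40 members, with a median of 0.12 and a range of -0.11 to 0.31. Among all transcripts 46.1% lay above 0, with a median of -0.01. The 4 members below 0 were CENPA, MKI67, INCENP and PRC1.

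The position of a gene on the brightness scale can be set beside this count. Of the 40 members, 33 belonged to the brightest quintile of all genes by mean log2 value, and in that quintile 63.2% of genes lay above 0 with a median of 0.04. Another 5 members lay in the next quintile. The part of signal brightness in the members' shared sign was not tested. The 95% intervals of 38 members included 0, and those of 39 lay above -0.5, the exception being CDK1 at -0.61. The highest upper bound was 0.74, for SPC25. The SE of a member's fold change ranged from 0.0835 to 0.281, with a median of 0.129.

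**Figure D1:**
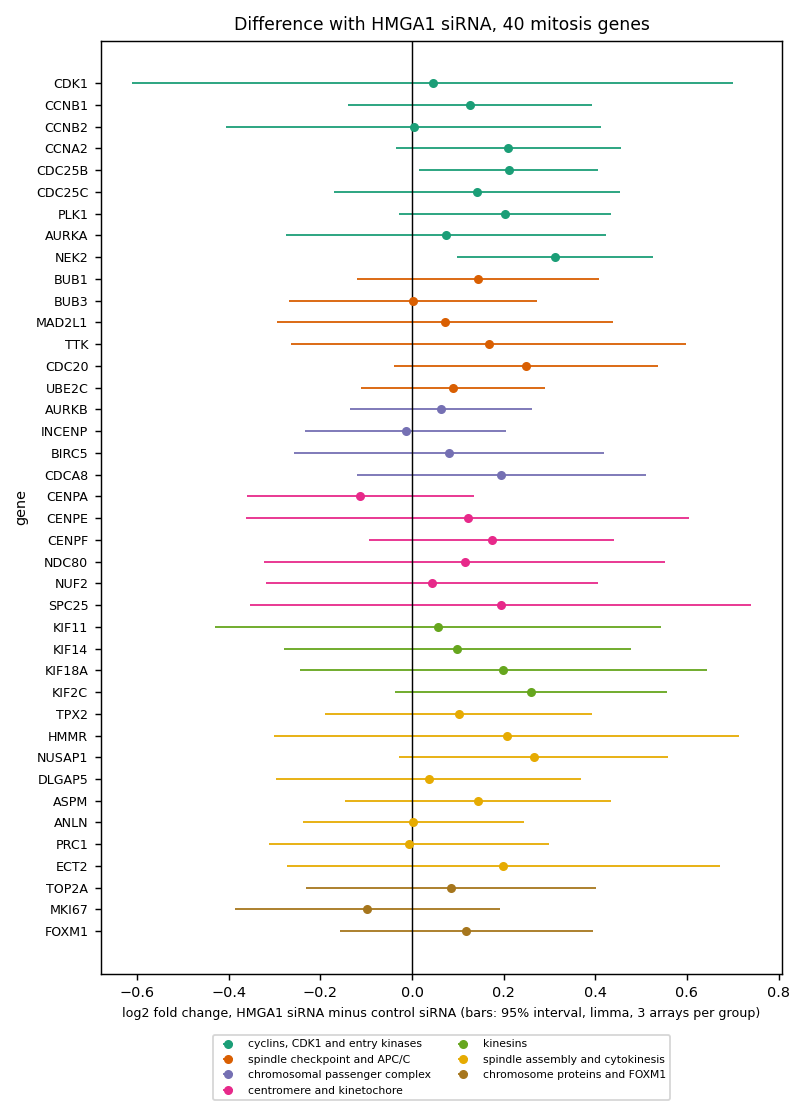
Log2 fold change of each of the 40 mitosis genes (x axis, HMGA1 siRNA minus control siRNA; points), with its 95% interval from limma on 3 arrays per group (bars), coloured by role. The intervals of NEK2 and CDC25B lie above 0 and the other 38 cross it, with CDK1 having the lowest bound at -0.61.

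Among the cyclins, CDK1 and the entry kinases, all 9 listed genes were measured and all 9 had fold changes above 0, with a median of 0.14. NEK2, a centrosome kinase that separates the spindle poles, stood at 9.98, 10.07 and 9.91 on control replicates 1 to 3 and at 10.28, 10.37 and 10.26 on HMGA1 siRNA replicates 1 to 3. Every HMGA1 siRNA array was above every control array, with a difference of 0.31 ± 0.09 (SE, 95% interval 0.10 to 0.53, limma unadjusted p = 0.0102, adjusted p = 1). CDC25B, the phosphatase that starts CDK1 activation, stood at 10.79, 10.75 and 10.74 on control arrays and at 10.96, 11.02 and 10.93 on HMGA1 siRNA arrays. Its groups also did not overlap, and both were tight, with SDs of 0.03 and 0.04 (difference 0.21 ± 0.08, SE, limma unadjusted p = 0.0375, adjusted p = 1). PLK1, the kinase that drives centrosome maturation and mitotic entry, stood at 12.16, 12.30 and 12.13 against 12.31, 12.51 and 12.38. Its groups did not overlap either, although the highest control array, replicate 2, nearly met the lowest HMGA1 siRNA array, replicate 1, and the difference was 0.20 ± 0.10 (SE, limma unadjusted p = 0.0764).

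CDK1 itself showed the widest spread of the 40 genes. It stood at 10.41, 10.62 and 9.90 on control replicates 1 to 3 and at 9.97, 10.94 and 10.16 on HMGA1 siRNA replicates 1 to 3, a difference of 0.04 ± 0.28 (SE, 95% interval -0.61 to 0.70). The lowest array was a control and the second lowest an HMGA1 siRNA array, so the groups overlapped over most of their range. CCNB1, its activating cyclin, stood at 11.58, 11.67 and 11.53 against 11.55, 11.91 and 11.70, with a difference of 0.13. Only HMGA1 siRNA replicates 2 and 3 lay above the control arrays. The other members of this role, CCNB2, CCNA2, CDC25C and the spindle pole kinase AURKA, had differences of 0.00, 0.21, 0.14 and 0.07, with overlapping groups.

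**Figure D2:**
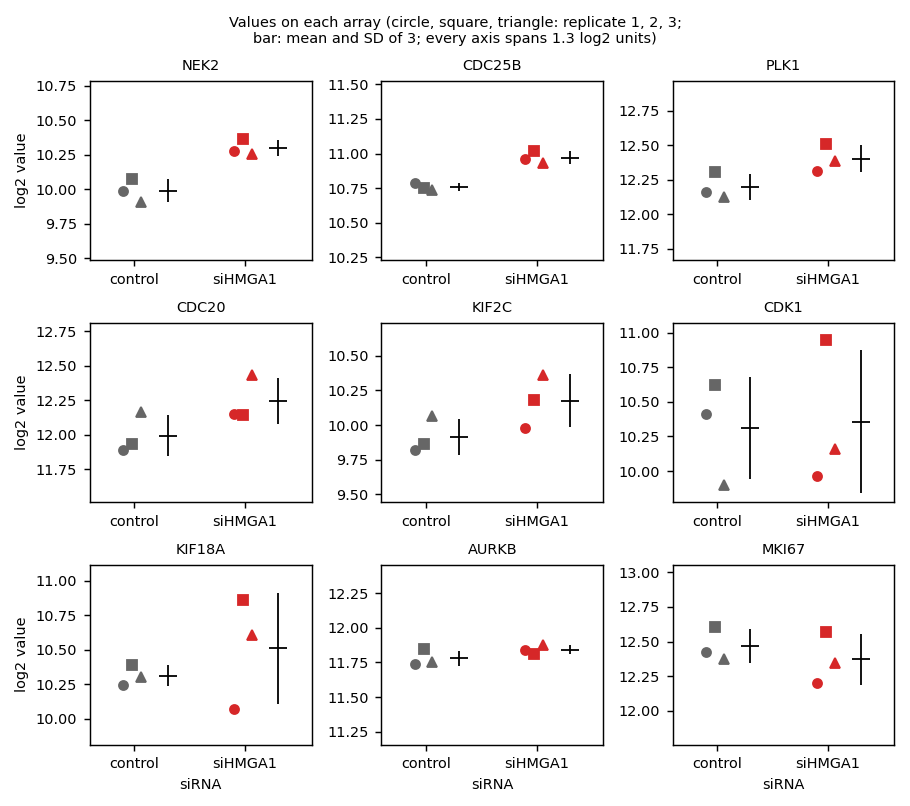
Log2 values of 9 mitosis genes (y axes, each spanning the same width) on the control siRNA arrays (grey) and HMGA1 siRNA arrays (red); symbols mark the replicate number, and the cross shows the mean ± SD of 3 arrays. NEK2, CDC25B and PLK1 do not overlap between groups, whereas CDK1 and KIF18A range over 0.98 and 0.79 log2 units within the HMGA1 siRNA arrays and AURKB over 0.06.

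Of the spindle checkpoint and APC/C genes, 6 of 7 were measured, with a median fold change of 0.12 and none below 0. CDC20, the APC/C activator that the checkpoint holds back, stood at 11.89, 11.93 and 12.16 on control arrays and at 12.15, 12.14 and 12.43 on HMGA1 siRNA arrays. In each group replicate 3 was the highest array, and control replicate 3 lay just above the lower HMGA1 siRNA arrays (difference 0.25 ± 0.12, SE, limma unadjusted p = 0.0812). BUB1, a checkpoint kinase at the kinetochore, stood at 11.60, 11.71 and 11.65 against 11.60, 11.95 and 11.84, a difference of 0.14. HMGA1 siRNA replicate 1 was among the control arrays and the other two lay above them. UBE2C, the ubiquitin-conjugating enzyme of the APC/C, had a difference of 0.09 with groups that did not overlap (limma unadjusted p = 0.331). Here too the groups nearly met, with control replicate 2 at 10.283 and HMGA1 siRNA replicate 3 at 10.285. BUB3, MAD2L1 and TTK, further checkpoint components, had differences of 0.00, 0.07 and 0.17.

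In total the groups did not overlap for 4 members, CDC25B, PLK1, NEK2 and UBE2C, all with the higher values in HMGA1 siRNA, and for 0 members in the opposite direction. Among all transcripts 4.28% did not overlap with HMGA1 siRNA higher and 3.51% with HMGA1 siRNA lower. The brightest quintile holds 33 of the members. There, 260 of 2847 genes did not overlap with HMGA1 siRNA higher and 144 with HMGA1 siRNA lower.

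The chromosomal passenger complex was measured in full, with a median fold change of 0.07 over its 4 genes. AURKB, its kinase, was the steadiest member, at 11.74, 11.84 and 11.76 on control arrays and 11.84, 11.81 and 11.87 on HMGA1 siRNA arrays. The difference of 0.06 had a 95% interval of -0.14 to 0.26. CDCA8 (borealin), which helps place the complex on the centromere, stood at 10.03, 10.21 and 10.33 against 10.16, 10.41 and 10.58, with a difference of 0.19. BIRC5 (survivin), which reads phosphorylated histone H3 there, stood at 10.11, 10.20 and 9.82 against 10.11, 10.34 and 9.92, with a difference of 0.08. These genes differed in where replicate 3 stood, which was the highest array of each group for CDCA8 and the lowest for BIRC5. INCENP, the scaffold of the complex, differed by -0.01.

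The 6 centromere and kinetochore genes were measured in full, with a median of 0.12. CENPA, the histone H3 variant that marks the centromere, had the lowest fold change of all 40 members and stood at 10.43, 10.29 and 10.55 on control arrays and 10.28, 10.23 and 10.41 on HMGA1 siRNA arrays. Its groups overlapped and the difference was -0.11 ± 0.11 (SE, limma unadjusted p = 0.320). CENPF, a large outer kinetochore protein, stood at 11.45, 11.49 and 11.51 against 11.45, 11.82 and 11.71, with a difference of 0.17. Its control arrays lay within 0.07 of each other while its HMGA1 siRNA arrays spread over 0.37. The kinetochore motor CENPE and NDC80, NUF2 and SPC25 of the NDC80 complex had differences of 0.12, 0.11, 0.04 and 0.19. These 4 were lowest within the HMGA1 siRNA group on replicate 1 and highest on replicate 2, with ranges of 0.86, 0.69, 0.60 and 0.93.

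Of the kinesins, 4 of 7 were measured, with a median of 0.15. KIF2C (MCAK), which shortens microtubules at faulty attachments, stood at 9.82, 9.86 and 10.06 against 9.98, 10.18 and 10.36, a difference of 0.26 ± 0.13 (SE, limma unadjusted p = 0.0779). Only control replicate 3 reached into the HMGA1 siRNA arrays, above their replicate 1. KIF18A, which dampens chromosome movements at metaphase, stood at 10.24, 10.39 and 10.30 against 10.07, 10.86 and 10.61, a difference of 0.20. Its lowest and its highest arrays were both HMGA1 siRNA arrays. KIF11 (Eg5), which pushes the spindle poles apart, and KIF14, a motor of cytokinesis, had differences of 0.06 and 0.10.

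The 8 genes of spindle assembly and cytokinesis had a median of 0.12. NUSAP1, a microtubule bundling protein, stood at 11.45, 11.64 and 11.35 on control arrays and 11.58, 11.93 and 11.73 on HMGA1 siRNA arrays, a difference of 0.27 ± 0.13 (SE, limma unadjusted p = 0.0704). Only HMGA1 siRNA replicate 1 lay below the highest control array. ECT2, the exchange factor that activates RhoA at the cleavage furrow, stood at 10.67, 10.53 and 10.12 against 10.44, 11.02 and 10.45, with a difference of 0.20. Its groups overlapped, and control replicate 3 was the lowest array. ASPM, a spindle pole protein, stood at 10.66, 10.67 and 10.77 against 10.59, 10.97 and 10.96, with a difference of 0.14, and HMGA1 siRNA replicate 1 was the lowest array. The spindle assembly factors TPX2, HMMR and DLGAP5 had differences of 0.10, 0.21 and 0.04, and the cytokinesis proteins ANLN and PRC1 of 0.00 and -0.01.

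The chromosome proteins TOP2A and MKI67 and the transcription factor FOXM1 had a median of 0.09. TOP2A, which untangles sister chromatids, stood at 12.02, 12.17 and 12.08 against 11.91, 12.39 and 12.23, a difference of 0.09. MKI67, the Ki-67 proliferation marker that coats mitotic chromosomes, stood at 12.42, 12.61 and 12.37 against 12.20, 12.57 and 12.34. Its difference was -0.10 ± 0.12 (SE, 95% interval -0.39 to 0.19), and its highest array was control replicate 2. FOXM1 stood at 11.15, 11.10 and 10.83 against 11.18, 11.24 and 11.03, with a difference of 0.12. For FOXM1 replicate 3 was the lowest array of each group.

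The spread between the HMGA1 siRNA arrays was larger than the difference between the groups for 37 of the 40 members. The exceptions were NEK2, CDC25B and PLK1. The share of all genes with such a spread was not counted, so this count was not read as a result about the members. The median range within the HMGA1 siRNA group was 0.38, against 0.21 within the control group, and 35 of the 40 members ranged more widely with HMGA1 siRNA, as did 69.6% of all genes. Much of this spread lay between HMGA1 siRNA replicates 1 and 2. Replicate 2 exceeded replicate 1 for 37 of the 40 members, against 37.2% of all genes and 68.3% of the brightest quintile. The median difference was 0.36 for the members, -0.10 over all genes and 0.09 over the brightest quintile. CDK1, SPC25, CENPE, KIF11 and HMMR differed most between these arrays, by 0.98, 0.93, 0.86, 0.83 and 0.81. CENPA, AURKB and CDC20 were the 3 members not higher on replicate 2, at -0.06, -0.03 and -0.01, and NEK2 and CDC25B were among the nearest to 0, at 0.09 and 0.06.

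HMGA1 siRNA replicate 2 was the highest of the 6 arrays for 33 of the 40 members (82.5%), including all 9 cyclins and entry kinases and all 8 spindle assembly and cytokinesis genes. The same array was the highest for 21.7% of all genes and for 40.2% of the brightest quintile. For CDC20, AURKB, CDCA8 and KIF2C the highest array was HMGA1 siRNA replicate 3, for INCENP and MKI67 control replicate 2, and for CENPA control replicate 3. The median deviation of the members from their own mean over the arrays was 0.25 on HMGA1 siRNA replicate 2, -0.15 on HMGA1 siRNA replicate 1 and 0.05 on HMGA1 siRNA replicate 3. On control replicates 1 to 3 it was -0.07, 0.01 and -0.12. On HMGA1 siRNA replicate 2 all genes had a median deviation of -0.07 and the brightest quintile of 0.07. HMGA1 itself was lowest on the same array, and the part of this in the members' values was not tested.

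**Figure D3:**
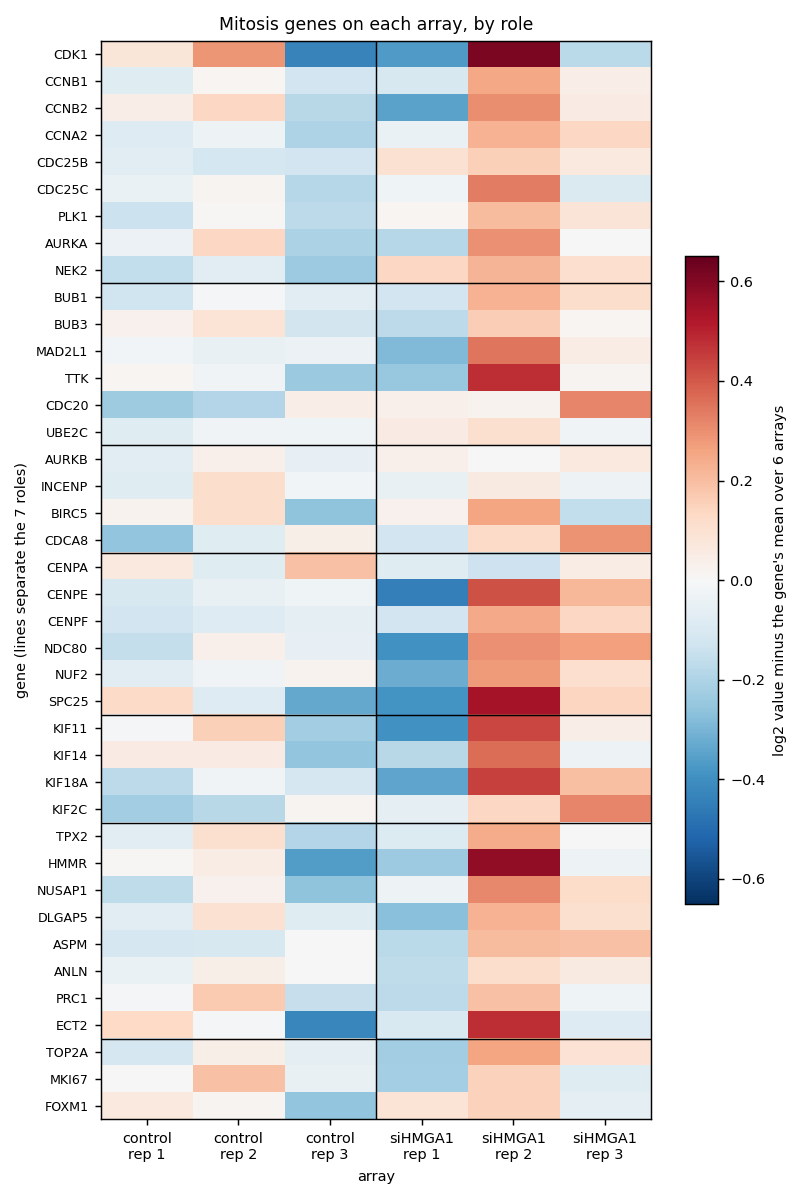
Deviation of each of the 40 mitosis genes (rows, grouped by role) from its own mean over the 6 arrays (columns, control siRNA left and HMGA1 siRNA right of the line), in log2 units. The column of HMGA1 siRNA replicate 2 is the highest array for 33 genes, most strongly CDK1, while CENPA is lowest there.

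Since the labels number the arrays as separate replicates, the comparison was repeated without each array. Without HMGA1 siRNA replicate 2, the median fold change of the members was -0.01, with 19 above 0 and 21 below, beside medians of 0.01 for all genes and for the brightest quintile. Without HMGA1 siRNA replicate 1 the median was 0.23 with 38 members above 0. Leaving out any 1 of the 4 other arrays gave medians of 0.08 to 0.16 and 29 to 38 members above 0. Without HMGA1 siRNA replicate 2, NEK2 still differed by 0.28 (limma unadjusted p = 0.0242, adjusted p = 1) and CDC25B by 0.19, while CDK1 stood at -0.25 and MKI67 at -0.20. The 6 kinetochore genes then had a median of -0.04 with 1 above 0, and the 9 cyclins and entry kinases a median of 0.03 with 6 above 0.

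**Figure D4:**
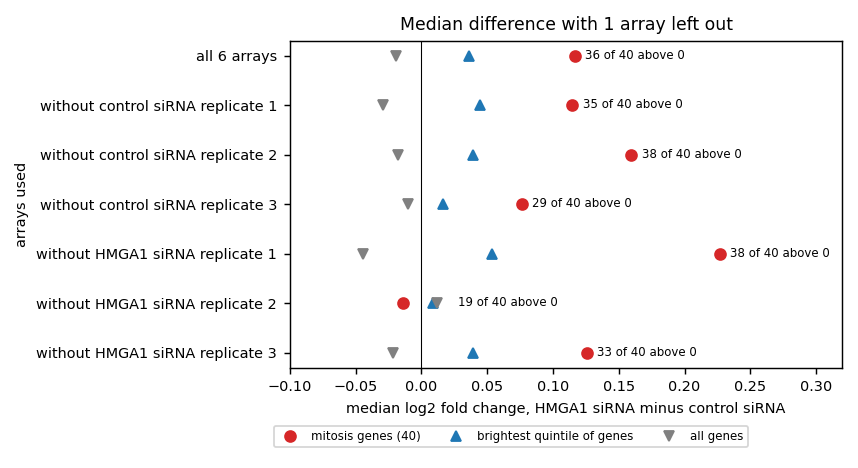
Median log2 fold change (x axis, HMGA1 siRNA minus control siRNA) of the 40 mitosis genes (red circles), the brightest quintile of genes (blue triangles) and all genes (grey triangles), with all 6 arrays and with each array left out in turn (rows). The median of the mitosis genes is -0.01 without HMGA1 siRNA replicate 2, with 19 of 40 genes above 0, and reaches 0.23 without HMGA1 siRNA replicate 1.

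The members with and without a CHR element of these spellings in their promoter windows, TTTGAA or TTCGAA, can be set side by side in this spread, as a description. The 27 members with the element had a median range of 0.43 over the HMGA1 siRNA arrays, from 0.09 for CDC25B to 0.98 for CDK1. The 6 without it had a median of 0.31, from 0.06 for AURKB to 0.86 for CENPE. NEK2 and AURKB, of low spread, and CENPE, of high spread, thus share a window without the element, whereas CDK1 and CDC25B share one with it. Their median fold changes were 0.11 with the element and 0.17 without it.

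Replicate 3 stood apart from replicates 1 and 2 in both groups for some genes outside the mitosis list: the epithelial gene CDH1 (E-cadherin) was lower on both replicate 3 arrays, at 7.56 and 7.28 against 8.78 to 9.40 on the other 4 arrays, and EPCAM and KRT19 were higher there. These were 3 of the 8 epithelial and hormone receptor markers examined, and their part in the values below was not tested. The members were therefore compared between replicate 3 and the mean of replicates 1 and 2, with a term for the siRNA. None passed an adjusted p of 0.05, where 0.468% of all transcripts did (103 of 22011, limma). The median difference of the members was -0.06, with 24 below 0 and 16 above. In the brightest quintile, which holds 33 of the members, it was -0.04, with 1688 genes below 0 and 1159 above, a similar balance, and over all genes it was 0.03, with 5976 below and 8256 above. The most negative were CDK1 at -0.46, ECT2 at -0.38 and BIRC5 at -0.32, and all 9 cyclins and entry kinases were below 0. The most positive were CDC20 at 0.27, KIF2C and CDCA8 at 0.25 each, and CENPA at 0.18; 5 of the 6 kinetochore genes were also above 0.

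The calls in this contrast depended on which array was left out, over all transcripts as well as for the members. Without HMGA1 siRNA replicate 1, CDK1 (-0.69, limma adjusted p = 0.0424), ECT2 (-0.52, adjusted p = 0.0424) and HMMR (-0.48, adjusted p = 0.0485) passed the threshold, and so did 4.75% of all transcripts. Without any 1 of the other arrays of replicates 1 and 2, no member passed. Over all transcripts 0% then passed without control replicate 1 or control replicate 2, and 0.3% without HMGA1 siRNA replicate 2. In the control arrays alone the median difference of the members was -0.10, and in the HMGA1 siRNA arrays alone it was 0.02.

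Other genes of mitosis, in lists drawn up from their known roles, were examined in the same fit. Together these 98 measured genes had a median fold change of 0.09, with 84 above 0 and 14 below. The median was 0.03 without HMGA1 siRNA replicate 2, 0.05 without control replicate 3 and 0.15 without HMGA1 siRNA replicate 1. None passed the adjusted threshold and 2 lay under an unadjusted p of 0.05, against 0% and 3.31% of all transcripts. For 10 of the 98 the groups did not overlap, all with the higher values in HMGA1 siRNA, against 942 of 22011 transcripts (4.28%). In the brightest quintile the share was similar to that of the lists, with 260 of 2847 genes not overlapping and HMGA1 siRNA higher. HMGA1 siRNA replicate 2 was the highest array for 67 of the 98 (68.4%), against 21.7% of all genes and 40.2% of the brightest quintile. The medians were 0.08 for 21 other kinetochore and centromere proteins, 0.12 for 11 APC/C subunits and regulators, 0.11 for 17 condensin and cohesin genes, 0.10 for 17 other spindle and centrosome proteins, 0.11 for 16 other mitotic kinases and regulators and 0.06 for 16 transcription regulators of mitotic genes.

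Among these, WEE1, the kinase that holds CDK1 inactive, had the smallest unadjusted p. It stood at 9.75, 9.88 and 9.84 on control arrays and 10.03, 10.33 and 10.18 on HMGA1 siRNA arrays, which did not overlap (difference 0.35 ± 0.11, SE, limma unadjusted p = 0.0113, adjusted p = 1). WEE1 was thus higher on all 3 HMGA1 siRNA arrays, as was CDC25B, which opposes it. TFDP2, the dimer partner of E2F factors, differed by 0.26 (unadjusted p = 0.0335 in the same limma fit) with groups that did not overlap. OIP5, which helps load CENPA onto centromeres, differed by 0.31 and the APC/C subunit CDC16 by 0.21, both without overlap, and SGO2, a protector of cohesin, by 0.35 with overlap. ARPP19, an inhibitor of the phosphatase PP2A during mitosis, differed by -0.34 with overlap.

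The DNA replication genes, which are transcribed before the mitotic genes in the cycle, had a median of 0.11 over 30 genes, with 24 above 0 and 6 below, and none passed the adjusted threshold. This median was 0.0016 without control replicate 3, 0.04 without HMGA1 siRNA replicate 2 and 0.03 without both arrays of replicate 3. CCNE2, an E-type cyclin that drives entry into S phase, had the largest difference of the list. It stood at 10.13, 10.29 and 9.72 on control arrays and 8.95, 9.67 and 9.36 on HMGA1 siRNA arrays, so that every HMGA1 siRNA array was below every control array (difference -0.72 ± 0.21, SE, limma unadjusted p = 0.0101, adjusted p = 1). The other E-type cyclin, CCNE1, differed by 0.05 with overlapping groups. TK1, the thymidine kinase of the salvage pathway, stood at 11.10, 11.20 and 10.99 against 11.34, 11.40 and 11.26, with a difference of 0.24 and no overlap. In this list 7 genes had non-overlapping groups with the higher values in HMGA1 siRNA, and CCNE2 was the 1 gene with non-overlapping lower values. Among all transcripts 4.28% did not overlap with HMGA1 siRNA higher and 3.51% with it lower. In the brightest quintile 260 and 144 of 2847 genes did so. Control replicate 3 was the lowest array for 22 of the 30 genes (73.3%), against 18.6% of all genes and 34.5% of the brightest quintile.

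**Figure D5:**
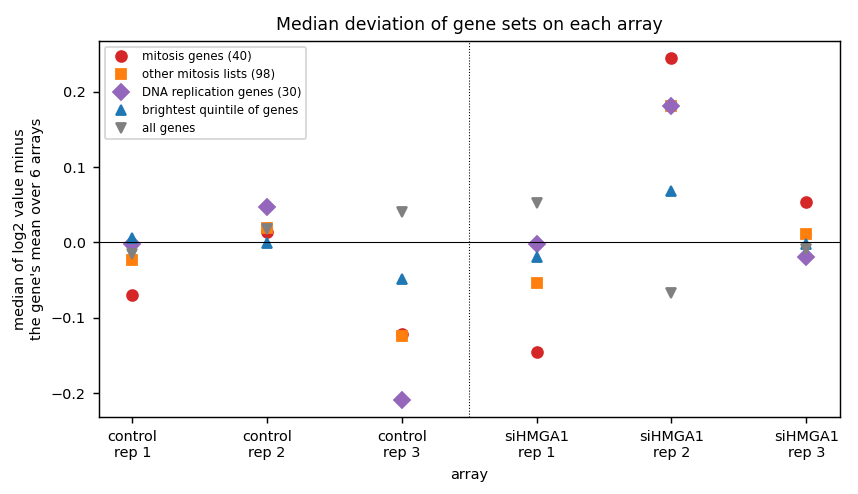
Median deviation, in log2 units (y axis), of the genes of each set from their own means over the 6 arrays, on each array (x axis). On HMGA1 siRNA replicate 2 the 40 mitosis genes lie at 0.25, the other mitosis lists and the DNA replication genes at 0.18 each, the brightest quintile of genes at 0.07 and all genes at -0.07.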

How the data were processed

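RNA of MDA-MB-231 cells was hybridised to Affymetrix Human Exon 1.0 ST arrays, 3 per group. The authors pre-processed the arrays with RMA in the oligo package, and the deposited table holds log2 values per transcript. The submitters' processing notes also name limma and hg18, and tool versions were not given in the sources used here. Of 22011 transcripts, 14432 carried 1 gene symbol, 2408 several and 5171 none, and 14404 of the 14432 matched RefSeq. Array medians lay between 8.28 and 8.38 and correlations between arrays between 0.982 and 0.995. As these are array values, the number of arrays limits the precision.

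Groups were compared with limma 3.58.1 in R 4.3.3 (two-sided, no further scaling, Benjamini-Hochberg over all transcripts, threshold 0.05). The scripts were tested on simulated data. Values on every array are given for HMGA1, for CDK1, CCNB1, PLK1, AURKB, TOP2A, MKI67 and FOXM1, for the 2 members of each role with the smallest p, and for the 3 members with the largest difference of replicate 3. Of each other mitosis or DNA replication list at most 2 genes were named, by smallest p, and CCNE1 was added beside CCNE2. The markers of the cell line come from lists of mesenchymal genes (all 6 named) and of epithelial and hormone receptor genes (all 8 named). The epithelial and hormone receptor genes were named after their values were seen. The members and lists were chosen with earlier results of these data known. Alternatives covered scaling, low values, the prior, replicates, array weights and the choice of transcripts. Promoter sequences are from RefSeq, GRCh38.p14, and no coordinates of the array annotation were used. TPX2, TTK, FOXM1, BUB3, UBE2C, AURKA and BIRC5 were not in the motif counts.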

Additional observations from a re-analysis of the deposited data

How the results depend on the processing

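No member passed the adjusted threshold under any of the 17 alternatives to the siRNA comparison. The members' median ranged from -0.0144 (without HMGA1 siRNA replicate 2) to 0.23 (without HMGA1 siRNA replicate 1), and the number above 0 from 19 to 38, when 1 array was left out. Quantile normalization gave 0.09 and 33 above 0, median centring 0.13 and 38, and both arrays of replicate 3 left out 0.07 and 30. Array weights gave 0.07 and 26, and a median of 0.03 for the other mitosis lists. In that fit 14 members lay under an unadjusted p of 0.05 (limma), and 11 did without HMGA1 siRNA replicate 1. The share of all transcripts under this threshold was not counted in either fit, so these counts were not read as a result about the members. With array weights 198 transcripts (0.9%) passed the adjusted threshold. CDC20 and KIF2C, both at 0.46, came nearest among members with an adjusted p of 0.0525, and HMGA1 passed (-0.46, adjusted p = 0.0376). These weights ran from 0.275 for HMGA1 siRNA replicate 2 to 6.80 for HMGA1 siRNA replicate 3.

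With the replicate block the median was 0.12 with 36 above 0, 6 members lay under an unadjusted p of 0.05 and the lowest adjusted p was 0.921. The share of all transcripts under that unadjusted threshold was not counted here either. Deviations of arrays with the same number correlated at -0.20, 0.26 and 0.53, so the numbers were not taken to pair the samples, although the arrays numbered 3 deviated together.

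Of 356 values of named genes under alternatives, 344 kept their direction and side of the threshold. Alternatives that changed only the test, added a replicate term or left out other transcripts could not change a fold change. CDK1, for example, stayed at 0.0449 with the trended and robust prior and with the replicate block. The count of 344 was thus partly set in advance and was not read as a sign of stability. With array weights the direction turned for CDK1 (-0.28), BIRC5 (-0.17), CENPA (0.0345), ECT2 (-0.0457) and FOXM1 (-0.0401), and for the median of the DNA replication genes (-0.0094). Leaving out both arrays of replicate 3 turned CDK1 (-0.0602). With 1 array left out, CDK1 ranged from -0.25 to 0.24, BIRC5 from -0.0291 to 0.182 and TOP2A from -0.0228 to 0.22. The cause was not tested. The median difference of replicate 3 was 0.0192 in the HMGA1 siRNA arrays alone, and the number of members called ranged from 0 to 3 when 1 array was left out. In the same fits the share of all transcripts called ranged from 0% to 4.75%.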
